A study of Mus musculus with 8 samples.

Results

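The genes described here are 8 genes of retinoid metabolism and retinoid reception, Stra6l, Lrat, Rdh16, Aldh1a1, Cyp26a1, Cyp26b1, Rara and Rarb, measured by RNA sequencing in mouse hepatocytes. They were taken by symbol from a table of 16337 genes, and each had 1 row. They were selected on their FPKM differences between the groups of these same 8 libraries, so their values are given as a description, with no p-value, and nothing is inferred from how many of them differed.

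Retinol (vitamin A) reaches cells bound to a plasma carrier, is taken up through membrane receptors and is stored as retinyl ester, in the liver mainly in stellate cells. Dehydrogenases convert retinol into retinal and then into retinoic acid, which binds the nuclear receptors RAR and RXR, and P450 enzymes of the CYP26 family break retinoic acid down. Cyp26a1 and Rarb are themselves known targets of retinoic acid, through response elements in their promoters.

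Hepatocytes, the metabolic cells of the liver, were isolated by collagenase digestion in 2 steps. Of the 4 groups, with 2 libraries each, the first was Hamp-/- (KO) given carbon tetrachloride (CCl4), a solvent that injures hepatocytes, and the second was KO given its carrier, olive oil. The other 2 were C57BL/6 wild type (WT) given CCl4 and WT given olive oil. Hamp encodes hepcidin, a peptide hormone made by hepatocytes that restrains iron export from cells. The animals were 4-week-old males, CCl4 was diluted to 12.5% in olive oil, and exposure lasted 24 h. A group had 6 mice by the design, but whether its 2 libraries stand for different mice is not given in the labels. Errors and p-values therefore measure the variation between libraries alone, and it could be technical. The labels state no exon for the deletion, no strain for the KO mice and no route of dosing. By its title the study concerns hepcidin, hepatocyte apoptosis and the PERK pathway.

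Values are FPKM, fragments scaled to transcript length and to library size, and sequencing depth is unknown. Hamp ranged from 0.54 to 2.72 FPKM in the 4 KO libraries and from 1136 to 1826 FPKM in the 4 WT libraries. The 12 hepatocyte markers, among them Alb, made up 13.5% to 16.9% of summed FPKM in KO libraries and 10.9% to 12.4% in WT libraries. That sum is mostly a few very abundant transcripts, and single markers went both ways. In KO, 5 of the 12 fell and 2 rose after CCl4 (limma), where 27.4% of all tested genes fell and 27.9% rose. After CCl4, 5 were lower and 3 higher in KO than in WT, against 27.5% and 29.6% of all tested genes. The urea cycle genes Cps1 and Ass1, along with Hnf4a and Cyp3a11, were lower in both comparisons, and the markers Fgb and Ahsg were higher in both. Under oil, 4 were higher and 1 lower in KO than in WT, against 22.4% and 11% of all tested genes. Between the 2 libraries of a group, log2 values differed over genes with a standard deviation of 0.394 (CCl4) and 0.364 (oil) in KO, against 0.139 in both WT groups.

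Promoter sequences of all 8 genes, 13 windows of 300 bases from 250 bases before to 50 after a transcript start, were read from RefSeq on GRCm38.p6. They were searched on both strands for a retinoic acid response element of the DR5 type, which is a pair of hexamers in the same orientation with 5 bases between them. The consensus hexamer is AGGTCA. The search also took GGGTCA as a variant at either place. Further variants that counted were AGTTCA at either place. The last one allowed was GGTTCA. Such an element was found in 2 of the 13 windows, those of Cyp26a1 and Rarb, and in 0.0974% of all 32851 windows. Both genes were known to carry response elements in their promoters, and the hexamers allowed include theirs. The match could therefore be foreseen, and nothing is inferred from these shares. With 1 or 2 bases between the hexamers, 0 of the 13 windows held a match, against 0.222% and 0.268% of all windows. The 250 bases before the start of those 2 genes are shown because the pair carries this element and, as the values show, differed in their pattern across the groups. Capitals mark the element, which lies from 32 to 16 bases before the start in Cyp26a1, where it reads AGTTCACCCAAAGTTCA on the opposite strand, and from 53 to 37 bases before the start in Rarb. The Cyp26a1 window is chr19:37697558-37697807 on the plus strand and the Rarb window chr14:16575477-16575726 on the minus strand, both printed in the direction of transcription.
Cyp26a1: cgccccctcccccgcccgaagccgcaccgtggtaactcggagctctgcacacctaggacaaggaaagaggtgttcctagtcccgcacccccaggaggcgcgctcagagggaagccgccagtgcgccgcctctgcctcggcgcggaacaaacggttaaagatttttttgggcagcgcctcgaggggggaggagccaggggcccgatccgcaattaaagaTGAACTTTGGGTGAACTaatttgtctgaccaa
Rarb: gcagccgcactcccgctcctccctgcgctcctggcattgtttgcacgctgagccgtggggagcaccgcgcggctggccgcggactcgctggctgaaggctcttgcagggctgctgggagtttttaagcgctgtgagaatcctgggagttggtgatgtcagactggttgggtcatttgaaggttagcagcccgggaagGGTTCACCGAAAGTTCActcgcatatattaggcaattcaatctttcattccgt
A match in letters is a description of the window and shows no binding.

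The 8 genes differed widely in level. By FPKM, which is per length, Aldh1a1 ranged from 37.3 to 390 FPKM over the 8 libraries, Cyp26a1 from 0.06 to 55.1, Stra6l from 17.0 to 42.6, Rdh16 from 8.74 to 19.1 and Rara from 4.38 to 7.04. Cyp26b1 ranged from 0.15 to 1.60 FPKM, Rarb from 0.17 to 1.04 and Lrat from 0.02 to 0.16. The fit across genes took the 10082 genes that reached 1 FPKM in 2 or more libraries, and 7 of the 8 genes were among them, all but Lrat. Cyp26b1 passed that filter only through the KO oil group, where it was highest. Cyp26a1 passed it only through the WT libraries. Rarb passed it only through replicate 1 of KO oil and replicate 1 of WT CCl4, at 1.04 FPKM in each. Differences below are on the scale of log2(FPKM + 1), which understates changes of low genes, with the standard error (SE) of the limma fit after ±.

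**Figure D1:**
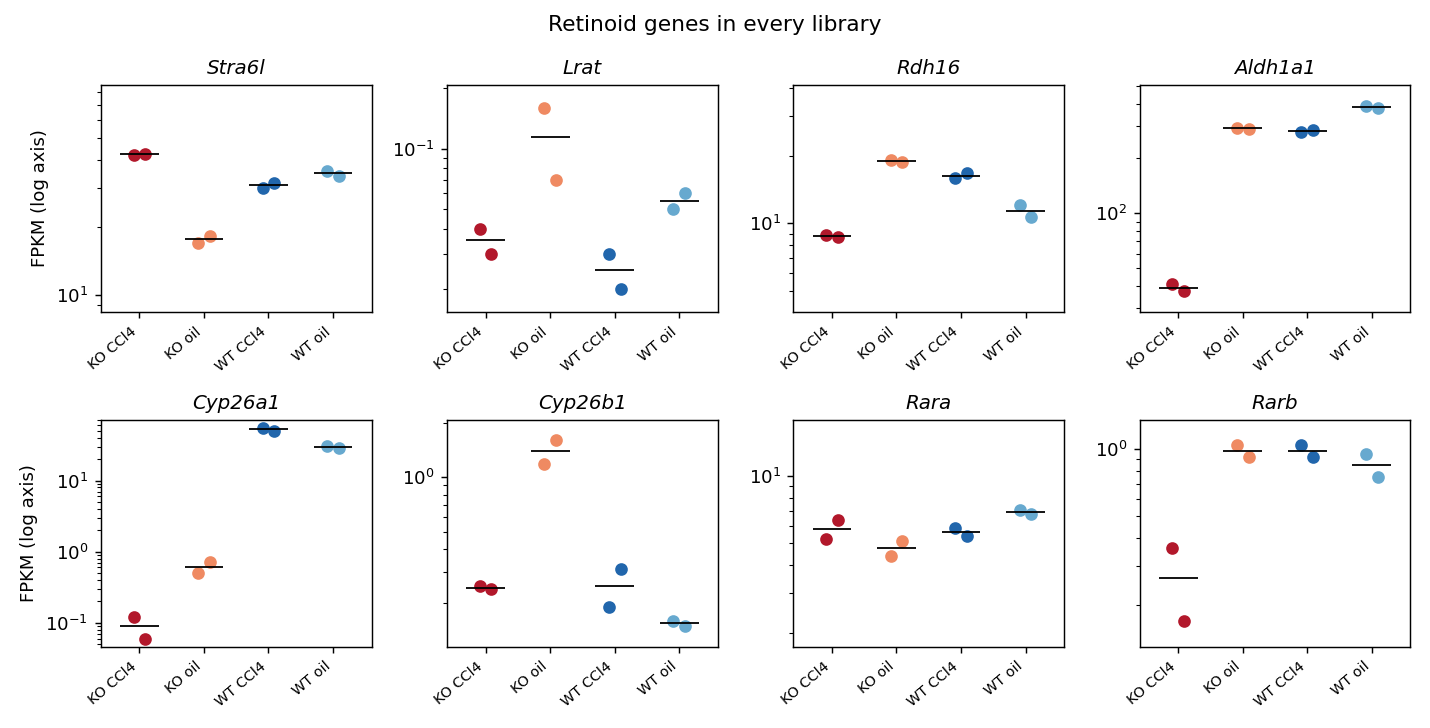
FPKM of each of the 8 genes (log axis, with its own range in each panel) in KO CCl4, KO oil, WT CCl4 and WT oil hepatocytes. Points are libraries and lines are group means. Cyp26a1 lies at or below 0.71 FPKM in all 4 KO libraries and at or above 28.4 FPKM in all 4 WT libraries, and Aldh1a1 and Rarb are lowest in the KO CCl4 libraries.

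Cyp26a1, the main retinoic acid hydroxylase of the liver, separated the genotypes further than any other of the 8 genes. It was at 0.12 and 0.06 FPKM in KO CCl4 libraries and 0.50 and 0.71 FPKM in KO oil libraries. In WT it was at 55.1 and 49.5 FPKM after CCl4 and 30.4 and 28.4 FPKM under oil. The order was WT CCl4, WT oil, KO oil, KO CCl4, with no overlap between neighbours. The ratio of means put Cyp26a1 581 times lower in KO than in WT hepatocytes after CCl4 (log2 difference -5.61 ± 0.11) and 48.6 times lower under oil (-4.25 ± 0.11). The first ratio rests on a KO mean of 0.09 FPKM in a table rounded to 2 decimals, so its size is imprecise. After CCl4 the direction also differed between genotypes. Cyp26a1 was lower after CCl4 than under oil in KO (-0.56 ± 0.11) and higher after CCl4 than under oil in WT (0.81 ± 0.11, a ratio of means of 1.78). With a pseudocount of 0.1 in place of 1, which weighs low values more, the KO difference was -1.89 and the genotype differences were -8.12 after CCl4 and -5.40 under oil.

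Cyp26b1, the second enzyme of the family, better known from tissues other than liver, showed another pattern. It was at 0.25 and 0.24 FPKM in KO CCl4 libraries and 1.19 and 1.60 FPKM in KO oil libraries. WT libraries had 0.19 and 0.31 FPKM after CCl4 and 0.16 and 0.15 FPKM under oil. The KO oil libraries stood above the other 6, and the KO CCl4 and WT CCl4 libraries overlapped. Under oil, where Cyp26a1 was lower in KO than in WT, Cyp26b1 was 9 times higher by the ratio of means (log2 difference 1.05 ± 0.11). Within KO it was lower after CCl4 than under oil (-0.94 ± 0.11). With a pseudocount of 0.1 these differences were 2.54 under oil and -2.10 in KO. The WT difference between CCl4 and oil was 0.11 ± 0.11, and it was -0.21 under quantile normalization. Its highest level, 1.60 FPKM, was far below the WT levels of Cyp26a1, the lowest of which was 28.4 FPKM.

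Aldh1a1, which encodes a retinal dehydrogenase that forms retinoic acid and also oxidizes other aldehydes, was high in all groups but KO CCl4. It was at 40.6 and 37.3 FPKM in KO CCl4 libraries and 293 and 292 FPKM in KO oil libraries. WT libraries held 279 and 286 FPKM after CCl4 and 390 and 381 FPKM under oil. The order was WT oil, KO oil, WT CCl4, KO CCl4, with KO oil and WT CCl4 close to each other but without overlap. Aldh1a1 was 7.5 times lower after CCl4 than under oil in KO (log2 difference -2.88 ± 0.07), and the WT difference had the same sign and was smaller (-0.45 ± 0.07). After CCl4 it was 7.25 times lower in KO than in WT (-2.83 ± 0.07), and under oil the difference was -0.40 ± 0.07. Aldh1a7, a close relative that also fell in KO after CCl4, could have shared reads with it.

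Rdh16, a retinol dehydrogenase of the endoplasmic reticulum that also acts on steroids, differed in opposite directions in the genotypes. It was at 8.88 and 8.74 FPKM in KO CCl4 libraries and 19.1 and 18.7 FPKM in KO oil libraries. In WT it was at 15.9 and 16.8 FPKM after CCl4 and 12.1 and 10.7 FPKM under oil. The order was KO oil, WT CCl4, WT oil, KO CCl4, and no 2 groups overlapped. The difference between CCl4 and oil was -1.02 ± 0.08 in KO and 0.48 ± 0.08 in WT on the log2 scale. Between genotypes it was -0.82 ± 0.08 after CCl4 and 0.69 ± 0.08 under oil. Rdh16 belongs to a cluster of similar genes with Rdh1, Rdh7 and Rdh9, so its reads could have been split between copies.

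Stra6l, which encodes a liver receptor that takes up retinol from its plasma carrier, differed with the sign opposite to that of Rdh16 in each of the 4 comparisons. It was at 41.9 and 42.6 FPKM in KO CCl4 libraries and 17.0 and 18.4 FPKM in KO oil libraries. In WT it was at 30.1 and 31.4 FPKM after CCl4 and 35.6 and 34.0 FPKM under oil. KO CCl4 was the highest group and KO oil the lowest, and the WT groups lay between them without overlap. The ratio of means between CCl4 and oil was 2.38 in KO (log2 difference 1.21 ± 0.07) and 0.883 in WT (-0.17 ± 0.07). Between genotypes the log2 difference was 0.45 ± 0.07 after CCl4 and -0.94 ± 0.07 under oil.

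Of the 2 receptor genes, Rara differed little and Rarb was low throughout. Rara, which encodes the retinoic acid receptor alpha, was at 5.23 and 6.36 FPKM in KO CCl4 libraries and 4.38 and 5.11 FPKM in KO oil libraries, and in WT at 5.84 and 5.38 FPKM after CCl4 and 7.04 and 6.77 FPKM under oil. The WT oil libraries were the highest, and both CCl4 groups overlapped, with KO oil lowest. Its log2 difference was 0.24 ± 0.12 between CCl4 and oil in KO, -0.26 ± 0.12 in WT, 0.04 ± 0.12 between KO and WT after CCl4 and -0.46 ± 0.12 under oil. Rarb, whose product is the retinoic acid receptor beta, was at 0.36 and 0.17 FPKM in KO CCl4 libraries and 1.04 and 0.92 FPKM in KO oil libraries. Levels in WT were 1.04 and 0.92 FPKM after CCl4 and 0.95 and 0.75 FPKM under oil. The KO CCl4 libraries stood below the other 6, which overlapped. Rarb differed by -0.65 ± 0.11 between CCl4 and oil in KO and by 0.10 ± 0.11 in WT, and by -0.65 ± 0.11 between KO and WT after CCl4 and 0.10 ± 0.11 under oil. By the ratio of means it was 3.70 times lower in KO CCl4 libraries than in KO oil libraries and than in WT CCl4 libraries, and with a pseudocount of 0.1 both differences were -1.61. Quantile normalization gave -0.08 for its WT difference between CCl4 and oil. The 2 genes with a DR5 element differed in pattern under oil, where Rarb in KO libraries was as high as in WT libraries and Cyp26a1 was far lower.

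**Figure D2:**
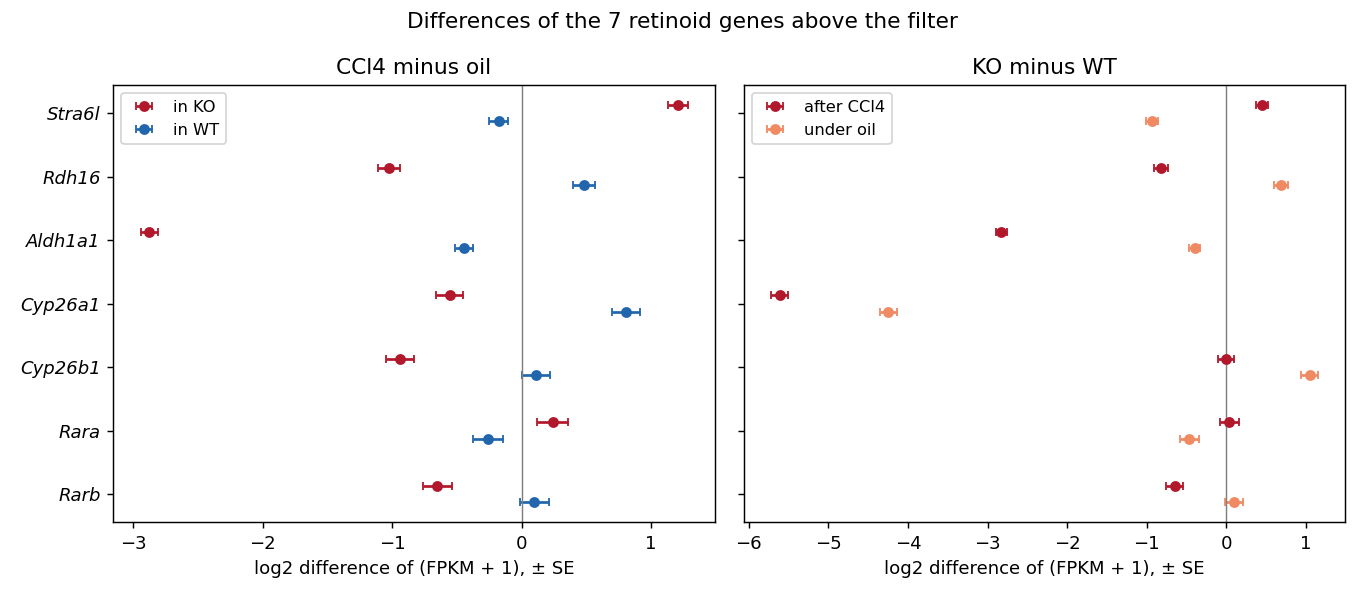
Log2 differences of (FPKM + 1), with standard errors as bars, for the 7 genes above the filter. The left panel gives CCl4 minus oil in KO and in WT, and the right panel KO minus WT after CCl4 and under oil. Rdh16 and Cyp26a1 lie on opposite sides of 0 in KO and WT on the left, Stra6l lies opposite to Rdh16, and Cyp26a1 lies furthest from 0 on the right.

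Lrat, the enzyme that esterifies retinol for storage, was at 0.04 and 0.03 FPKM in KO CCl4 libraries and 0.16 and 0.07 FPKM in KO oil libraries, and in WT at 0.03 and 0.02 FPKM after CCl4 and 0.05 and 0.06 FPKM under oil. The KO oil libraries were the highest, but all values were below 0.2 FPKM and were not tested. Of the 21 stellate cell markers, 4 passed the filter. The summed level of all 21 was 21.0 to 21.8 FPKM in KO CCl4 libraries and 11.4 to 12 in KO oil. In WT it was 5.82 to 6.35 after CCl4 and 4.53 to 4.87 under oil. Ecm1, Dcn and Tagln were the largest in KO CCl4, with means of 8.5, 3.3 and 3.2 FPKM. Single markers went both ways in KO. Of the 4 tested, 3 rose after CCl4 and 0 fell (limma). Colec11, Hand2 and Vipr1, not tested, had higher means in KO oil (1.11, 0.285 and 0.325 FPKM) than in KO CCl4 (0.63, 0.18 and 0.25). Gfap, a defining marker, was listed at 0 in 7 of the 8 libraries and at 0.02 FPKM in 1 WT oil library. The 12 sinusoidal endothelial markers summed to 38.3 to 41.4 FPKM in KO CCl4 and 66.9 to 83.5 in KO oil. In WT they summed to 10.2 to 11 after CCl4 and 11.5 to 14.6 under oil. The 11 tested were all higher in KO than in WT under oil and after CCl4 (limma), against 22.4% and 29.6% of all tested genes. The 12 Kupffer cell and macrophage markers summed to 546 to 681 FPKM in KO CCl4 and 324 to 425 in KO oil. In WT they summed to 195 to 205 after CCl4 and 32.8 to 38.2 under oil. All 12 were higher in KO than in WT under oil, and 11 after CCl4 (limma). The part of these cells in the values of Cyp26b1, Rarb and Lrat was not tested, and in bulk samples fewer cells of a type and less RNA per cell cannot be told apart.

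**Figure D3:**
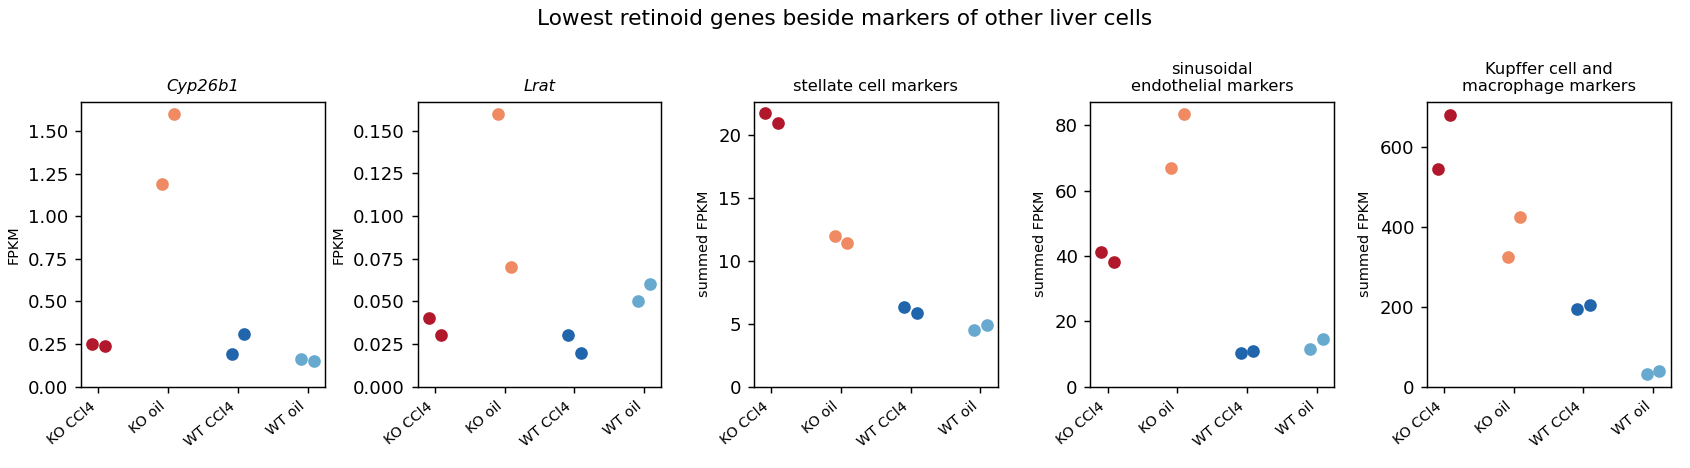
FPKM of Cyp26b1 and Lrat beside the summed FPKM of the stellate, sinusoidal endothelial and Kupffer cell marker lists in each library (linear axes from 0). Points are libraries, in the order KO CCl4, KO oil, WT CCl4 and WT oil. Cyp26b1, Lrat and the endothelial sum are highest in KO oil, while the stellate and Kupffer sums are highest in KO CCl4. Single markers of the stellate and Kupffer lists went both ways between KO oil and KO CCl4.

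Across the table many genes differed, which sets the background for counts among these 7 genes. In KO, 6 of the 7 were past an FDR of 0.05 between CCl4 and oil (limma), 1 higher and 5 lower, where 55.3% of all tested genes were past it, 27.9% higher and 27.4% lower. In WT it was 3 of 7, 2 higher and 1 lower, against 15.8% of all genes, 10.2% higher and 5.61% lower. After CCl4, 5 of 7 differed between KO and WT, 1 higher and 4 lower, against 57.1%, with 29.6% higher and 27.5% lower. Under oil it was 6 of 7, 2 higher and 4 lower, against 33.4%, with 22.4% higher and 11% lower. The response differed between genotypes for 6 of 7, 1 higher and 5 lower, against 33.3%, with 14.3% higher and 19% lower. The libraries of CCl4 and oil did not overlap for 7 of 7 genes in KO, against 71% of all tested genes, and for 6 of 7 in WT, against 70.8%. Those of KO and WT did not overlap for 5 of 7 after CCl4, against 80.5%, and for 6 of 7 under oil, against 70.2%. Since these values chose the genes, nothing is read from the counts. The median log2 difference over the 7 was -0.65 between CCl4 and oil in KO and 0.10 in WT, where the medians of all tested genes were -0.03 and 0.04.

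The genes whose profile over the 8 libraries lay closest to each of these were found by the root mean square difference of log2 values centred on each gene's mean, a description with no test. Cyp26a1 had no close match. Its nearest genes were Angptl8, an inhibitor of lipoprotein lipase, at 0.91, Mid1ip1, a regulator of fatty acid synthesis, at 0.99 and Orm3, an orosomucoid gene, at 1.15. For Aldh1a1 they were Cth (0.09), Abat (0.12) and Cyp2c29 (0.13), for Rdh16 Xpot (0.08), Adgrl2 (0.11) and Slc2a2 (0.11). For Stra6l they were Snrpa (0.08), Pcgf1 (0.11) and Eps8l2 (0.12), and for Cyp26b1 Adcy4 (0.10), Tob2 (0.10) and Errfi1 (0.11). The pseudocount of 1 shrinks the changes of low genes such as Cyp26b1. The ratio of means of KO oil over WT oil was 9 for Cyp26b1 and 9.25 for Adcy4, but 2.36 for Tob2 and 1.97 for Errfi1. Distances were not scaled to the span of group means, 5.61 for Cyp26a1 and 1.05 for Cyp26b1, so they do not compare between these genes. The group means of Rara and Rarb spanned less than 1 on the log2 scale, so no match was sought.

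The other genes of the pathway were taken from a list of 85 genes in 8 roles, of which 80 were in the table and 59 passed the filter. The list was chosen with earlier results of these data known. Its counts, here and below, are therefore a description, and nothing is inferred from how they compare with the shares of all genes. In KO hepatocytes 34 of the 59 tested genes fell after CCl4 and 12 rose (78% past the threshold, against 55.3% of all tested genes, of which 27.4% fell and 27.9% rose), with a median log2 difference of -0.46. In WT hepatocytes, 11 rose and 9 fell (33.9%, against 15.8% of all genes), with a median of -0.10. The WT count of 20 was 10 or 9 without replicate 1 or 2 of the WT CCl4 group, and 9 or 8 without replicate 1 or 2 of the WT oil group. When only the 4 libraries compared were fitted, it was 37, with 16 higher and 21 lower. The KO count was then 36, with 10 higher and 26 lower. The main fit shares 1 estimate of spread between genotypes whose replicates differed unlike amounts. The KO and WT counts therefore do not measure which genotype responded more. Quantile normalization gave 13 higher and 14 lower in WT, and over all genes it gave 842 higher and 785 lower, against 1026 and 566 without it.

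Among carriers, Rbp4, the plasma carrier of retinol, fell after CCl4 in KO, with 2083 and 2422 FPKM after CCl4 and 3295 and 3951 under oil (log2 difference -0.68 ± 0.12, limma adjusted p = 0.00241). Ttr, which encodes transthyretin, the partner of RBP4 in plasma, fell as well (-0.56 ± 0.12, limma adjusted p = 0.00615, or 0.0567 when only the 4 libraries were fitted). Fabp5, a fatty acid binding protein that can also bind retinoic acid, was the 1 of 4 tested carriers past the threshold in WT. There it rose (0.97 ± 0.12, limma adjusted p = 0.00276), and the part of other liver cells in its values was not tested.

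Of the 11 tested genes of retinyl ester formation and breakdown, 5 fell and 3 rose in KO. Ces1d, a carboxylesterase, had 39.6 and 39.2 FPKM in KO CCl4 libraries and 758 and 798 FPKM in KO oil libraries (log2 difference -4.27 ± 0.06, limma adjusted p = 4.62e-07). Ces1g, another carboxylesterase, fell in KO (-3.18 ± 0.07) and in WT (-0.72 ± 0.07, limma adjusted p = 0.000989), as did Ces1f in WT (-0.81 ± 0.07). The carboxylesterase genes are similar in sequence and could have shared reads. Of the 16 tested retinol and retinal dehydrogenases and reductases, 10 fell and 3 rose in KO, and 3 rose and 2 fell in WT. Adh4, an alcohol dehydrogenase that oxidizes retinol, fell to 5.01 and 3.99 FPKM in KO CCl4 libraries, against 55.1 and 56.5 FPKM in KO oil libraries (-3.37 ± 0.10, limma adjusted p = 1.57e-06). Hsd17b6, a hydroxysteroid dehydrogenase with activity on retinol, fell in KO (-2.70 ± 0.08) and rose in WT (1.56 ± 0.08, limma adjusted p = 0.000109), where Rdh9, a relative of Rdh16, also rose (2.15 ± 0.09, limma adjusted p = 4.78e-05). Dhrs3, which reduces retinal and is a known target of retinoic acid, was named after its values were seen. It had 19.2 and 21.1 FPKM in KO CCl4 libraries, 54.2 and 60.1 in KO oil, 50.3 and 45.6 in WT CCl4 and 71.4 and 70.6 in WT oil, the same order of groups as Aldh1a1.

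Of the 3 tested genes of carotenoid cleavage and uptake, Bco1, which splits beta-carotene into retinal, rose in KO (1.71 ± 0.10, limma adjusted p = 2.21e-05) and in WT (0.95 ± 0.10, limma adjusted p = 0.00137). Bco2, which cleaves carotenoids off centre, fell in KO (-1.65 ± 0.12) and in WT (-0.47 ± 0.12, limma adjusted p = 0.0426). The WT call of Bco2 was lost without any 1 of the 4 WT libraries, with limma adjusted p from 0.15 to 0.227, and under quantile normalization (adjusted p = 0.0502). Of the 4 tested genes of retinal oxidation, 3 fell in KO, among them Aldh8a1, a retinal dehydrogenase (-2.00 ± 0.06, limma adjusted p = 1.96e-06), and Aox3, an aldehyde oxidase gene (-3.86 ± 0.15, limma adjusted p = 4.1e-06). In WT, limma called 0 of the 4, and 1 was lower at an unadjusted p under 0.05. Of the 13 tested receptors and cofactors, 8 fell and 0 rose in KO (0 higher also at an unadjusted p under 0.05), with Rxra, the common partner of RARs in liver, at 39.5 and 44.1 FPKM in KO CCl4 libraries and 90.8 and 97.5 FPKM in KO oil libraries (-1.16 ± 0.08, limma adjusted p = 4.63e-05). Nr2f2, an orphan receptor that can compete with RARs, fell by 1.24. In WT, limma called 0 of the 13, and at an unadjusted p under 0.05, 1 was higher and 1 lower. Of the 8 tested genes known to respond to retinoic acid, 4 rose and 4 fell in KO, with Tgm2, a transglutaminase gene, higher (1.48 ± 0.11). In WT 3 rose and 2 fell, and Fgf21, a hormone gene, and Bhlhe40, a transcription factor gene, were higher (1.22 ± 0.11 and 0.72 ± 0.07).

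**Figure D4:**
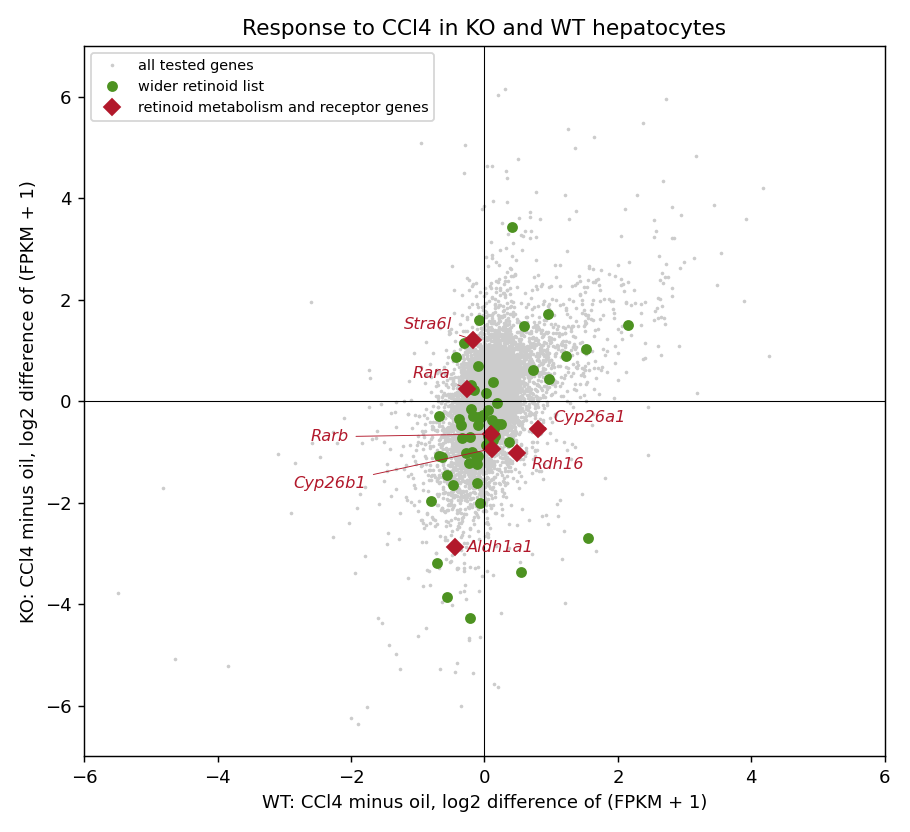
Log2 difference of (FPKM + 1) between CCl4 and oil in KO (vertical axis) against that in WT (horizontal axis). Grey points are the 10082 tested genes, green points the wider retinoid list and red diamonds the 7 retinoid genes above the filter. Cyp26a1 and Rdh16 lie at lower right (lower in KO, higher in WT), Stra6l at upper left, and Aldh1a1 below 0 on both axes.

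Between genotypes, more listed genes were lower than higher in KO after CCl4, and more were higher than lower under oil. After CCl4, 25 of 59 genes were lower and 14 higher in KO than in WT (66.1%, against 57.1% of all genes), with a median of -0.21. Under oil, 23 were higher and 4 lower (45.8%, against 33.4%), with a median of 0.20. The oil count of 27 was 16 without replicate 1 of the WT oil group. Over all genes, quantile normalization gave 1748 higher and 1351 lower under oil, against 2256 and 1112 without it, and for the list it gave 23 higher and 6 lower. These comparisons share libraries with those of CCl4 against oil, so the same values enter both.

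Ces1d and Hsd17b6 differed in opposite directions under the 2 treatments. Ces1d was lower in KO than in WT after CCl4 (-2.54 ± 0.06, limma adjusted p = 1.46e-06) and higher under oil (1.51 ± 0.06, limma adjusted p = 2.18e-05). Hsd17b6 was likewise lower after CCl4 (-2.58 ± 0.08) and higher under oil (1.67 ± 0.08). Adh4 was lower in KO after CCl4 (-4.05 ± 0.10, limma adjusted p = 1.46e-06). Plin2, which coats lipid droplets, the store of retinyl esters in stellate cells and of neutral fat in hepatocytes, had 1168 and 1336 FPKM in KO CCl4 libraries and 99.2 and 98.7 FPKM in WT CCl4 libraries (3.65 ± 0.10, limma adjusted p = 1.89e-06). Fabp5 was higher in KO under both treatments (2.61 ± 0.12 after CCl4 and 3.15 ± 0.12 under oil). Most Kupffer cell and macrophage markers were also higher in KO under both, and the part of those cells in the Fabp5 values was not tested. Rxra was higher in KO under oil (0.81 ± 0.08, limma adjusted p = 0.000609), as was Rarg, the third RAR gene (0.56 ± 0.09), at 1.41 and 1.21 FPKM in KO oil libraries and 0.55 and 0.59 FPKM in WT oil libraries. Of retinal oxidation genes, 4 of 4 were lower in KO after CCl4, with Aldh8a1 at -2.02 ± 0.06 and Aox3 at -3.58 ± 0.15. Under oil Aox1 was lower (-0.88 ± 0.09), 1 of the 4.

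**Figure D5:**
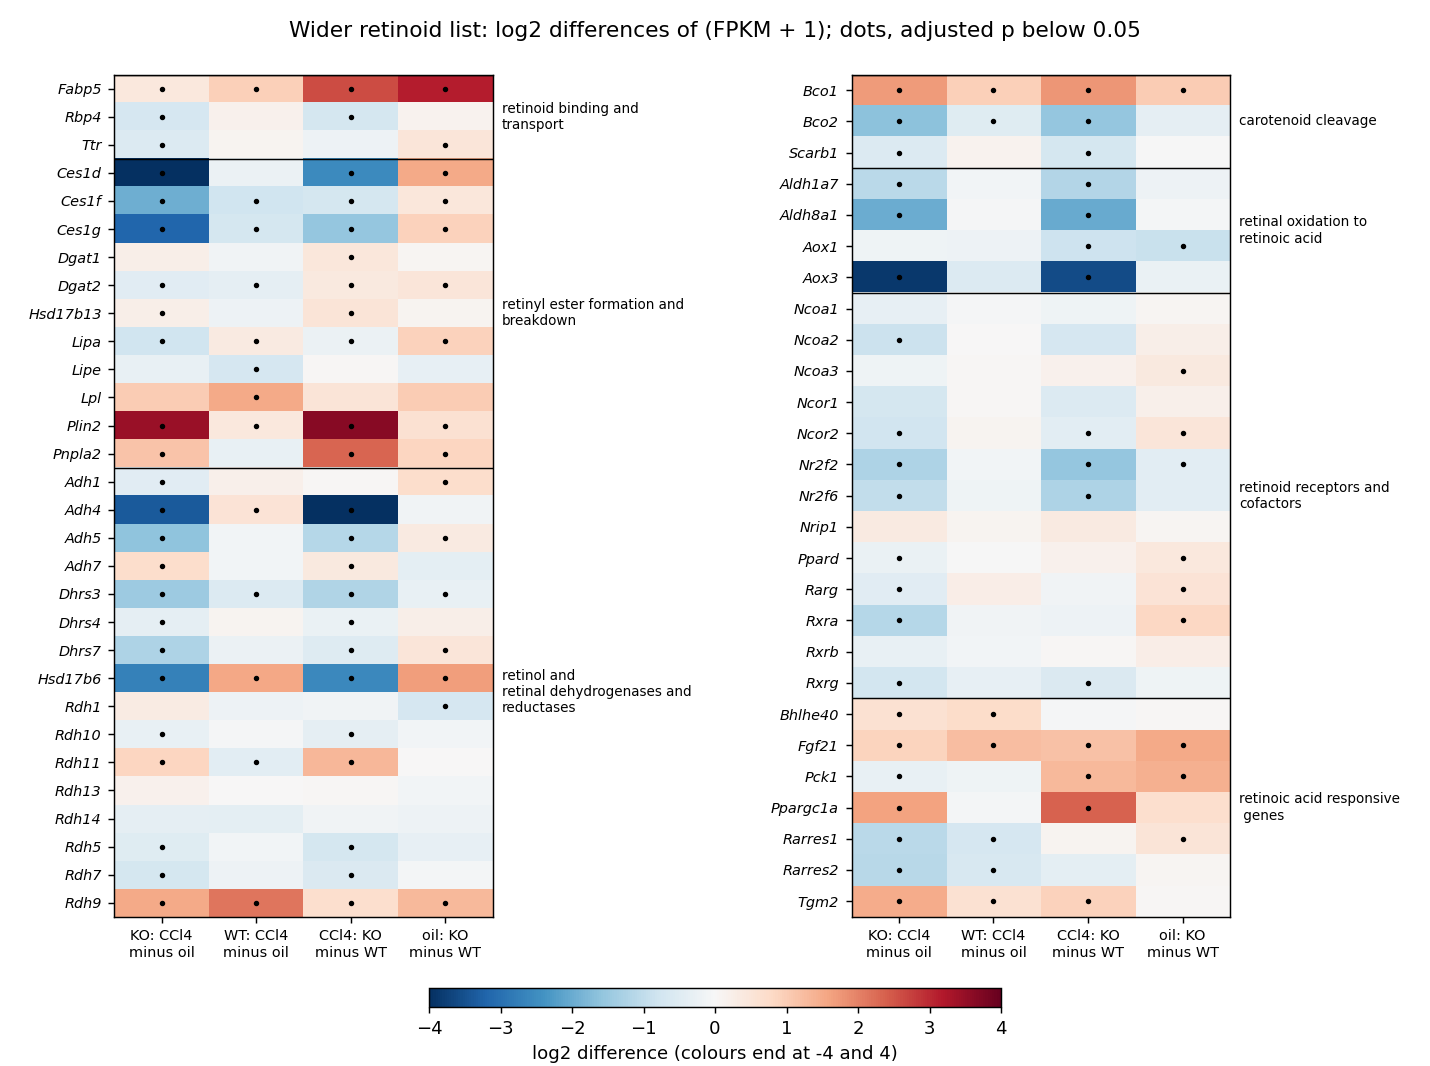
Log2 differences of (FPKM + 1) of 57 of the 59 tested genes of the wider retinoid list, by role, for CCl4 minus oil in KO and WT and for KO minus WT after CCl4 and under oil. Dots mark adjusted p below 0.05 (limma), and colours end at -4 and 4. Most receptor and oxidation genes are blue in the KO response, and most marked cells are red in the oil column.

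The response to CCl4 differed between genotypes for 34 of the 59 listed genes (57.6%, against 33.3% of all genes), with 26 lower and 8 higher in KO than in WT and a median of -0.49. Over all genes, quantile normalization gave 1811 higher and 1602 lower, against 1437 and 1918 without it, and for the list it gave 8 higher and 27 lower. The largest differences named were those of Hsd17b6 (-4.25 ± 0.12, limma adjusted p = 7.95e-06), Ces1d (-4.05 ± 0.09, limma adjusted p = 7.95e-06) and Adh4 (-3.92 ± 0.14, limma adjusted p = 1.17e-05). For the retinoid genes described first, the same difference was -2.43 ± 0.10 for Aldh1a1, -1.51 ± 0.12 for Rdh16, -1.36 ± 0.15 for Cyp26a1, -1.05 ± 0.15 for Cyp26b1 and -0.75 ± 0.16 for Rarb. It had the other sign for Stra6l (1.38 ± 0.11) and Rara (0.50 ± 0.17). With a pseudocount of 0.1 it was -2.72 for Cyp26a1, -2.54 for Cyp26b1, -1.80 for Rarb and -1.61 for Rdh16, so the order of size among these genes depends on the pseudocount.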

How the data were processed

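The authors deposited 1 table of FPKM for 8 libraries, per the file headers, rounded to 2 decimals. Library preparation followed Illumina's standard steps, per the labels' protocols, and the build mm8 is named per the submitters' processing notes. Neither the aligner nor the software, annotation and depth behind the values are given in the labels or headers. Columns were assigned to libraries by the descriptions and to groups by the titles. In the 2 WT oil libraries, 1906 genes lay between 0.15 and 1 FPKM. Their log2 ratios, in bins of 0.05, put at most 171 genes in a bin, and whole reads could not be recovered. FPKM falls for a gene where others take more reads.

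Of 16338 rows, 1 names no gene. Values were taken as log2(FPKM + 1), and the 10082 genes that reached 1 FPKM in 2 or more libraries were fitted in 1 model of 4 groups with limma 3.58.1 (R 4.3.3, trended prior, 4 residual and 2.61 prior degrees of freedom), two-sided, with Benjamini-Hochberg adjustment over all genes and an FDR of 0.05. The fit was tested on simulated data. The members, lists and alternatives were chosen with earlier results of these data known. Of the wider list, up to 2 genes per role and comparison with the smallest adjusted p were named, and some that qualified are not reported here. All 8 identifiers matched RefSeq on GRCm38.p6, used for names and promoter sequences only, since its build is another. Alternatives were quantile normalization, a fit without the filter, a replicate block, the pseudocount 0.1, fits of only the compared libraries, weights by genotype and leaving out each library. Equal medians, the omission of replicate 2 of both KO groups and crossed numbers were added after seeing the data. Figures used matplotlib 3.10.9 in Python 3.11.15.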

Additional observations from a re-analysis of the deposited data

Results flagged for a closer look

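The response to CCl4 went opposite ways in the genotypes for Cyp26a1, Cyp26b1, Rdh16, Rara and Stra6l. The libraries of CCl4 and oil did not overlap in either genotype for these 5 genes. This was read from the libraries, and no test is used as support, because these values chose the genes. The share of all tested genes with such opposite responses was not counted. Libraries of CCl4 and oil did not overlap for 71% of tested genes in KO and 70.8% in WT. In the fit across all genes the difference passed the threshold for 4 of the 5, all but Rara, against 33.3% of all tested genes. Nothing is read from these counts. Only Cyp26a1 and Rdh16 were past the threshold in both genotypes. Rara was past it in neither (0.24 in KO and -0.26 in WT), and Stra6l and Cyp26b1 were not past it in WT. For Cyp26b1 the WT response was 0.11, and under quantile normalization it was -0.21, the same sign as in KO. The log2 response in KO minus that in WT was -1.36 for Cyp26a1, -1.05 for Cyp26b1, -1.51 for Rdh16, 0.50 for Rara and 1.38 for Stra6l.

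For 20 named genes of the wider list, the same difference passed the threshold of limma's interaction test (Benjamini-Hochberg adjustment over all genes), and for 7 of them the fitted responses had opposite signs. Among carriers it was -0.84 for Rbp4 and -0.68 for Ttr. Among genes of retinyl ester turnover it was -4.05 for Ces1d, -2.47 for Ces1g, -1.16 for Ces1f, -1.17 for Lipa and 3.02 for Plin2. Among dehydrogenases it was -4.25 for Hsd17b6, -3.92 for Adh4 and -0.65 for Rdh9. For carotenoid genes it was 0.76 for Bco1, -1.17 for Bco2 and -0.69 for Scarb1, and for retinal oxidation -1.94 for Aldh8a1 and -3.30 for Aox3. Among receptors it was -1.02 for Rxra, -0.71 for Rarg, -1.13 for Nr2f2 and -0.81 for Nr2f6, and among genes known to respond to retinoic acid 0.88 for Tgm2.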

How the results depend on the processing

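No log2 difference of the retinoid genes that was past the threshold changed sign under the alternatives run. By the spread between replicates, 498 of 553 values moved less, but many could not have moved more. The fit without the filter, the replicate block, the weights and fits of only the compared libraries leave a gene's difference as it is. So does leaving out a library outside the comparison. With 2 libraries in a group, leaving out 1 cannot move a difference between 2 groups beyond that spread. The count of 498 is therefore no measure of robustness. Differences below the threshold that changed sign were those of Cyp26b1 (-0.21) and Rarb (-0.08) in WT under quantile normalization, and those of Cyp26b1 and Rara between KO and WT after CCl4, which lay near 0. Of the 55 that moved more, 16 did so with a pseudocount of 0.1 and 13 with quantile normalization. Calls of named genes held in 944 of 963 cases, and the 19 lost were of Bco2 and Ttr. The call of Ttr in the interaction was lost without either replicate of either WT group (limma adjusted p 0.068 to 0.0811), without the filter (0.0526) and with equal medians (0.0807). Its call under oil was lost without KO oil replicate 2, without either WT oil library and with equal medians (limma adjusted p 0.0684 to 0.116), and that of Bco2 in WT also without the filter (0.0663), with the replicate block (0.0569) and with equal medians (0.0638). The count of all genes called in WT (1592) was 4180 with only the libraries compared and 3801 with weights by genotype, and the list count (20) was 37 and 33. In KO the count of all genes (5574) was 3897 and 4289 under the same alternatives, and the list count (46) was 36 and 41. Without replicate 2 of both KO groups, WT counts were 4167 genes and 35 of the list, and counts over all genes were 5125 for KO against WT under oil (3368) and 5241 for the interaction (3355). Leaving out 1 library gave 596 to 1954 genes and 8 to 23 of the list in WT. It gave 1650 to 3919 genes and 16 to 30 of the list for KO against WT under oil, with the lowest 2, 1650 and 1744, without WT oil replicates 1 and 2. For the interaction it gave 2007 to 3892 genes and 25 to 37 of the list, with 2154, 2063, 2056 and 2007 without WT CCl4 replicates 1 and 2 and WT oil replicates 1 and 2. The members past the threshold in WT (3) were 1 without WT CCl4 replicate 1 or 2 or WT oil replicate 2, and 5 with only the libraries compared. The causes were not tested.

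With a replicate block, the list counts were 48 (KO response), 20 (WT response), 41 (KO against WT after CCl4), 29 (under oil) and 38 (interaction), and the counts over all genes were 5727, 1617, 6094, 3568 and 3517. Differences between replicates 1 and 2 correlated across genes at 0.803 between the KO groups and from -0.253 to 0.219 in the other 5 pairs of groups, so the numbers were not used as pairs. With the replicate block and crossed numbers, 6498 genes differed between KO and WT after CCl4, against 6094 with the block as numbered and 5761 without a block. Depth is unknown, so the counting error of Lrat, Cyp26b1, Rarb and of Cyp26a1 in KO cannot be given.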
